A study of Drosophila melanogaster with 54 samples.

Results

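The dpr and beat genes of Drosophila melanogaster encode cell surface and secreted proteins of the immunoglobulin superfamily that take part in the wiring of the nervous system. They were taken from the gene count table of a BEAF-32 experiment on fly heads as every row whose symbol began with dpr and a number or with beat-I or beat-V, which gave 35 of 16719 genes, 21 of them dpr and 14 beat. The rule reads gene symbols alone. The Dpr proteins (named for defective proboscis extension response) carry a pair of extracellular immunoglobulin domains and bind the DIP proteins on other neurons. Different Dpr and DIP pairs mark different neurons and their partners, for example at neuromuscular junctions and in the layers of the optic lobe. The Beat proteins are named after beaten path, the secreted product of beat-Ia that lets motor axons leave their bundle, and several of them bind receptors of the Sidestep family.

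The experiment crossed temperature with a knockdown of BEAF-32, which binds DNA at insulator elements, and asked whether BEAF-32 takes part in the transcriptional response of the head to warmth. Knockdown flies carried actin5C-gal4, a driver active in most tissues, and a UAS-RNAi transgene against BEAF-32, and were held at 29 °C or at 18 °C. Control flies carried actin5C-gal4 without the RNAi transgene, are labelled wild type, and were held at 29 °C or at 18 °C. All 4 groups had YW as the labelled strain, grew up at 25 °C and spent 3 days as young adults at their temperature under 12 h of light and 12 h of dark. Each group had 3 libraries of 3′ ends of polyA RNA from heads, 12 of the 54 samples of the series. The labels used here gave neither the sex of the flies nor the number of heads per library, and they name 1 RNAi transgene, so the effect of that transgene and of BEAF-32 loss cannot be told apart. They do not state whether the libraries of 1 group are separate batches of flies, so p-values speak for the spread of these libraries, which could be technical.

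Libraries held 2905211 to 7146191 counts, and levels are given as CPM, the count relative to the TMM-scaled library size. A count of 0 in a library would have allowed 0.42 to 1.03 CPM, with 3 counts as its upper limit, for counting error only. BEAF-32 itself stood at 0.516 to 3.5 CPM in the 6 knockdown libraries, against 32.2 to 39.1 CPM in the 6 control libraries. The edgeR log2 fold change was -4.00 at 29 °C (SE 0.227, adjusted p = 1.25e-10) and -3.70 at 18 °C (SE 0.236, adjusted p = 5.43e-10). Within a group, log CPM values of any pair of libraries correlated at r = 0.978 to 0.988 over genes. Some libraries stood apart from their groups in single genes. Obp83a, an odorant-binding protein gene of the antenna picked after its values were seen, was at 69 and 44 CPM in replicates 2 and 3 of knockdown at 18 °C and at 8.16 CPM in replicate 1 of control at 29 °C, and at 0.2 to 1.61 CPM in the other libraries. The male dosage compensation RNA roX1 was at 113 CPM in replicate 1 of knockdown at 29 °C, against 257 and 205 CPM in the others of that group. It was at 54.2 CPM in replicate 2 of control at 18 °C, against 191 and 143 CPM in the others. Knockdown libraries at 18 °C stood at 102 to 138 CPM, so these 2 libraries are called low in roX1 relative to their own groups. Leaving out the 3 libraries high in Obp83a left 1 library of knockdown at 18 °C. In comparisons with that group, the part of these libraries and the loss of replicates cannot be told apart. Each dpr or beat result, and each single gene named from another list, that lost its call without either set of libraries is named below. The counts of called genes in the other lists are for all 12 libraries.

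All 35 genes had enough reads to be tested, among 9056 genes in all. Their counts per library ran from 4 to 369, and their mean levels from 3.05 CPM for beat-Ia to 50.2 CPM for dpr7, with a median of 11.5 CPM against 19.6 CPM over all genes tested. How evenly the 3′ end libraries capture different genes was not tested, so differences in level between genes are not interpreted. The neuron marker list was detected throughout: its 17 genes were all tested and summed to 1492 to 1861 CPM per library. Heads also held photoreceptor, glia, muscle, antennal and fat body transcripts, and in such bulk RNA fewer cells of a type and less RNA per cell cannot be told apart.

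The highest group mean of a gene was on median 1.35 times its lowest, under 1.25 times in 13 genes, from 1.25 to under 1.5 times in 13 and 1.5 times or more in 9. No gene reached a 2-fold change by fitted log2 fold change in any of the 5 comparisons. Among all genes tested, 7.84% did for temperature in knockdown heads, 7.77% in control heads, 3.68% for knockdown at 29 °C, 4.15% at 18 °C and 3.41% for the interaction. Among the 6314 genes within the same range of mean CPM the share was 1.95 to 6.11%. By the quasi-likelihood test of edgeR, at a threshold of 0.05 on p-values adjusted over all genes (Benjamini-Hochberg), 10 genes passed in at least 1 comparison, 3 of them in more than 1, and 25 in none. That is 28.6% of the 35, where 55.2% of all genes tested and 48.5% of those within the range passed in at least 1. The 10 genes were dpr7, dpr10, dpr12, dpr13, dpr15, dpr19, dpr21, beat-Ib, beat-Ic and beat-IV. Between them they gave 15 called results.

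**Figure D1:**
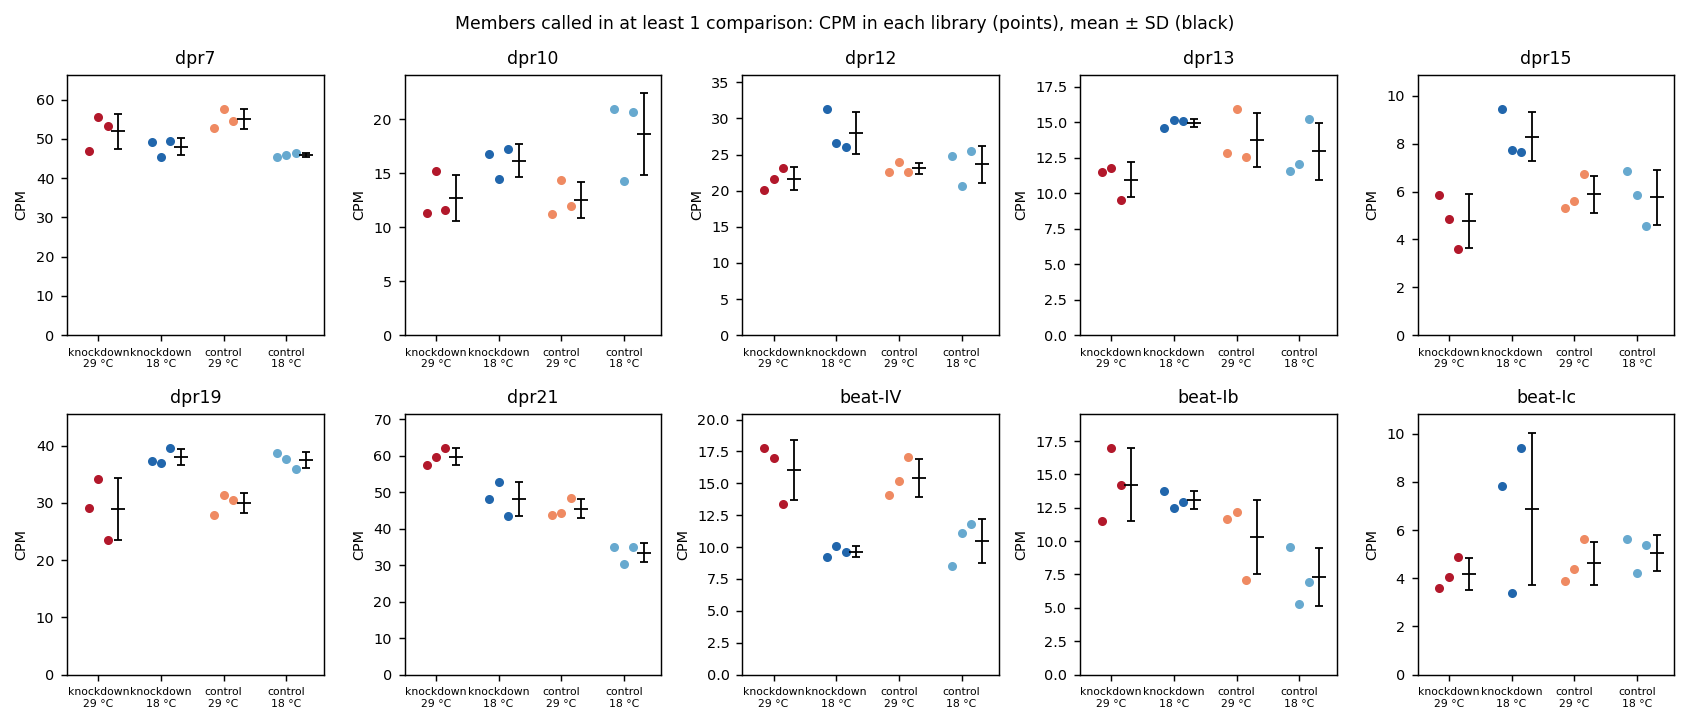
CPM of the 10 genes that passed the test in at least 1 comparison, in each of the 12 libraries (points, 3 per group), with the group mean ± SD in black. In dpr21 the 3 knockdown libraries at 29 °C, at 57.3 to 62.1 CPM, lie above all others, and the 3 control libraries at 18 °C, at 30.4 to 34.9 CPM, lie below all others.

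dpr21 was the only gene of the 35 called in 4 comparisons: it was higher at 29 °C in both genotypes and higher in knockdown heads at both temperatures. It stood at 57.3, 59.7 and 62.1 CPM in knockdown heads at 29 °C and at 48.1, 52.9 and 43.6 CPM in knockdown heads at 18 °C. In control heads it stood at 43.6, 44.1 and 48.5 CPM at 29 °C and at 34.9, 30.4 and 34.8 CPM at 18 °C. The groups did not overlap in any of the 4 comparisons, while the knockdown libraries at 18 °C and the control libraries at 29 °C overlapped.

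The temperature log2 fold change of dpr21 was 0.32 in knockdown heads (SE 0.0926, edgeR adjusted p = 0.0107) and 0.45 in control heads (SE 0.0947, edgeR adjusted p = 0.000624). The knockdown log2 fold change was 0.39 at 29 °C (SE 0.0896, edgeR adjusted p = 0.00455) and 0.53 at 18 °C (SE 0.0978, edgeR adjusted p = 0.000585). The interaction (the temperature effect in knockdown heads minus the one in control heads) was -0.14 with a 95% interval of -0.41 to 0.14. Without replicate 3 of knockdown at 18 °C, or without the 3 libraries high in Obp83a, the call for temperature in knockdown heads was lost. The other 3 calls of dpr21 held under all alternatives run.

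Temperature was compared first, as 29 °C against 18 °C. In knockdown heads 7 of the 35 genes passed, 2 higher and 5 lower, or 20% of them, where 35.5% of all genes tested passed (16.6% higher and 18.9% lower) and 30.1% of those within the range of mean CPM. In control heads 5 passed, 3 higher and 2 lower, or 14.3%, against 38% of all genes tested (18.2% higher and 19.8% lower) and 31.6% of those within the range. The median log2 fold change of the 35 was -0.07 in knockdown heads and 0.06 in control heads, against -0.01 and 0.00 over all genes tested. Neither median kept its sign on leaving out single libraries: it was 0.02 in knockdown heads without replicate 3 of knockdown at 18 °C, and -0.005 in control heads without replicate 2 of control at 29 °C. Without the 3 libraries high in Obp83a it was 0.04 in knockdown and 0.12 in control heads. Precision differed too: the median SE of a log2 fold change was 0.187 for the 35 genes in knockdown heads, 0.165 for genes of that range and 0.151 for all genes. Libraries of the temperatures did not overlap in 10 of the 35 genes in knockdown heads, where 45.1% of all genes did not, and in 7 in control heads, where 49.1% did not.

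**Figure D2:**
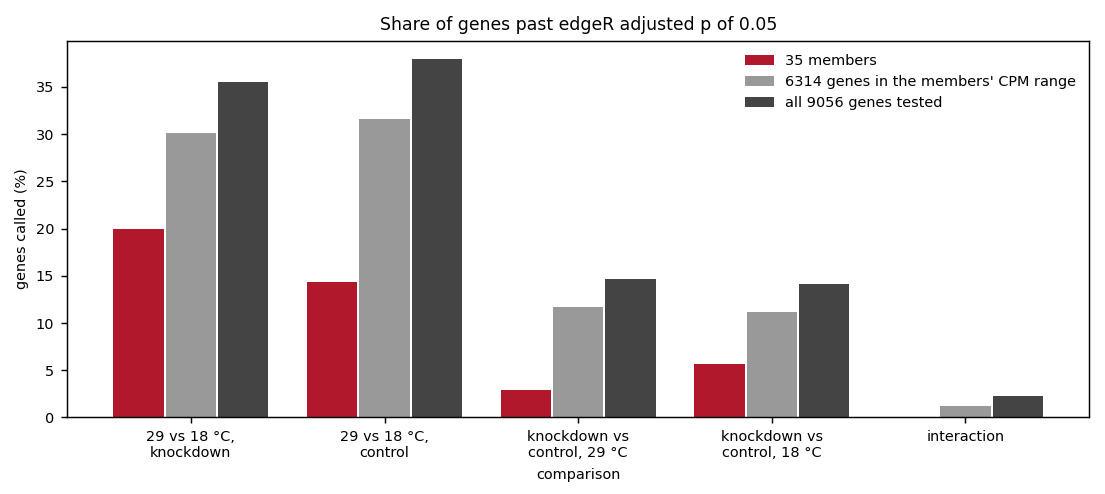
Percent of genes past an edgeR adjusted p of 0.05 in each comparison, for the 35 dpr and beat genes, the 6314 genes within their range of mean CPM and all 9056 genes tested. The share of the 35 was 20% for temperature in knockdown heads and 14.3% in control heads, and no gene of the 35 passed for the interaction.

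beat-IV was the beat gene called for temperature in both genotypes. It stood at 17.8, 17 and 13.4 CPM at 29 °C and 9.19, 10.1 and 9.63 CPM at 18 °C in knockdown heads. In control heads it stood at 14.1, 15.2 and 17 CPM at 29 °C and 8.5, 11.1 and 11.8 CPM at 18 °C. All 6 warm libraries lay above all 6 cool ones. The rise was 1.69-fold in knockdown heads (log2 fold change 0.76 with SE 0.171, edgeR adjusted p = 0.00153) and 1.48-fold in control heads (log2 fold change 0.57 with SE 0.158, edgeR adjusted p = 0.00686). Both calls held under all alternatives run. Knockdown left no called difference in beat-IV, with a 95% interval of the log2 fold change of -0.24 to 0.38 at 29 °C and -0.49 to 0.27 at 18 °C.

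dpr19 was the gene lower at 29 °C in both genotypes. It stood at 29.1, 34.2 and 23.5 CPM at 29 °C and 37.3, 37.1 and 39.6 CPM at 18 °C in knockdown heads. In control heads it stood at 27.9, 31.4 and 30.5 CPM at 29 °C and 38.7, 37.7 and 35.9 CPM at 18 °C. Warm libraries lay below cool ones in each genotype, with log2 fold changes of -0.38 in knockdown heads (SE 0.115, edgeR adjusted p = 0.0142) and -0.33 in control heads (SE 0.11, edgeR adjusted p = 0.0228). Neither call held without the 3 libraries high in Obp83a, which left 1 library of knockdown at 18 °C. The log2 fold change in control heads was then -0.28. The call in control heads was also lost without the 2 libraries low in roX1 (edgeR adjusted p = 0.0632). DESeq2 did not call dpr19 in control heads. Leaving out single libraries also ended it: in knockdown heads replicate 3 of either temperature, and in control heads replicate 1 or 2 at 18 °C or replicate 1 at 29 °C.

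A pair of genes passed for temperature in control heads alone. dpr7 stood at 52.8, 57.7 and 54.7 CPM at 29 °C and 45.4, 45.9 and 46.4 CPM at 18 °C, groups that did not overlap (log2 fold change 0.26 with SE 0.0846, edgeR adjusted p = 0.0174). In knockdown heads it stood at 46.9, 55.5 and 53.4 CPM at 29 °C and 49.2, 45.5 and 49.5 CPM at 18 °C, which overlapped (edgeR adjusted p = 0.368). Its call was lost in DESeq2 and without replicate 2 of control at 29 °C, with an adjusted p up to 0.078. The interaction of dpr7 was -0.16 (SE 0.122, edgeR adjusted p = 0.639), so a difference between the genotypes was not called.

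dpr10, whose product binds DIP-alpha in the wiring of leg and body wall muscles, stood at 11.2, 14.4 and 12 CPM at 29 °C and 21, 14.2 and 20.6 CPM at 18 °C in control heads. The highest library at 29 °C and the lowest at 18 °C stood close together, so that the groups overlapped narrowly, and the log2 fold change was -0.54 (SE 0.169, edgeR adjusted p = 0.0149). In knockdown heads dpr10 stood at 11.3, 15.2 and 11.6 CPM at 29 °C and 16.8, 14.5 and 17.3 CPM at 18 °C (log2 fold change -0.34 with SE 0.181, edgeR adjusted p = 0.154). The interaction of dpr10 was 0.20 (SE 0.248, edgeR adjusted p = 0.792), so a difference between the genotypes was not called. The call in control heads was lost without the 3 libraries high in Obp83a (edgeR adjusted p = 0.0767) and without replicate 1 or 3 of either temperature (up to 0.101).

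In knockdown heads 4 further genes were lower at 29 °C. dpr12, which encodes a partner of DIP-delta in mushroom body wiring, stood at 20.1, 21.7 and 23.2 CPM at 29 °C and 31.4, 26.6 and 26.1 CPM at 18 °C (log2 fold change -0.38 with SE 0.123, edgeR adjusted p = 0.0216). dpr15, whose product binds DIP-gamma, stood at 5.87, 4.86 and 3.61 CPM at 29 °C and 9.46, 7.75 and 7.66 CPM at 18 °C (log2 fold change -0.77 with SE 0.24, edgeR adjusted p = 0.0164). dpr13 stood at 11.5, 11.8 and 9.54 CPM at 29 °C and 14.6, 15.2 and 15.1 CPM at 18 °C (log2 fold change -0.43 with SE 0.163, edgeR adjusted p = 0.0453). In each of these 3 genes the warm libraries lay below the cool ones.

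beat-Ic, a close relative of beat-Ia, was the other: it stood at 3.6, 4.05 and 4.9 CPM at 29 °C and 7.84, 3.37 and 9.41 CPM at 18 °C (log2 fold change -0.79 with SE 0.301, edgeR adjusted p = 0.0447). Replicate 2 at 18 °C was the lowest of all 6, so its groups overlapped. These calls rested on single libraries to different degrees. That of dpr13 was lost under 15 of 20 alternatives and that of beat-Ic under 12. Both were lost without the 3 libraries high in Obp83a, which left 1 library of knockdown at 18 °C. Both were also lost without the 2 low in roX1 (edgeR adjusted p of 0.0796 for dpr13 and 0.13 for beat-Ic). Without replicate 3 at 18 °C the log2 fold change of beat-Ic was -0.49 (edgeR adjusted p = 0.32). That of dpr12 was lost under 5, among them leaving out the 2 libraries low in roX1, replicate 1 at 18 °C, or replicate 1 or 2 at 29 °C (edgeR adjusted p up to 0.147). That of dpr15 was lost under 3, which left out the 3 libraries high in Obp83a, replicate 1 at 18 °C or replicate 3 at 29 °C (up to 0.0789).

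In control heads the same 4 genes did not pass. dpr12 had a temperature log2 fold change of -0.02 there, dpr13 0.11, dpr15 0.01 and beat-Ic -0.10. The interaction was -0.36 for dpr12 (SE 0.172, edgeR adjusted p = 0.352), -0.54 for dpr13 (SE 0.223, edgeR adjusted p = 0.256), -0.77 for dpr15 (SE 0.333, edgeR adjusted p = 0.283) and -0.70 for beat-Ic (SE 0.422, edgeR adjusted p = 0.51). A difference between the genotypes in these genes was thus not called.

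Just short of the threshold, beat-VI, whose product binds Side-II, stood at 11.2, 9.79 and 8.99 CPM at 29 °C and 15.7, 11.7 and 13.1 CPM at 18 °C in control heads (log2 fold change -0.43 with SE 0.171, edgeR adjusted p = 0.0537). beat-Vb, of the subfamily that binds Side-VI, stood at 9.46, 9.06 and 9.8 CPM at 29 °C and 5.14, 7.41 and 6.35 CPM at 18 °C in knockdown heads (log2 fold change 0.59 with SE 0.233, edgeR adjusted p = 0.0545). Neither pair of groups overlapped, and each of these genes passed there under 6 of 20 alternatives.

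**Figure D3:**
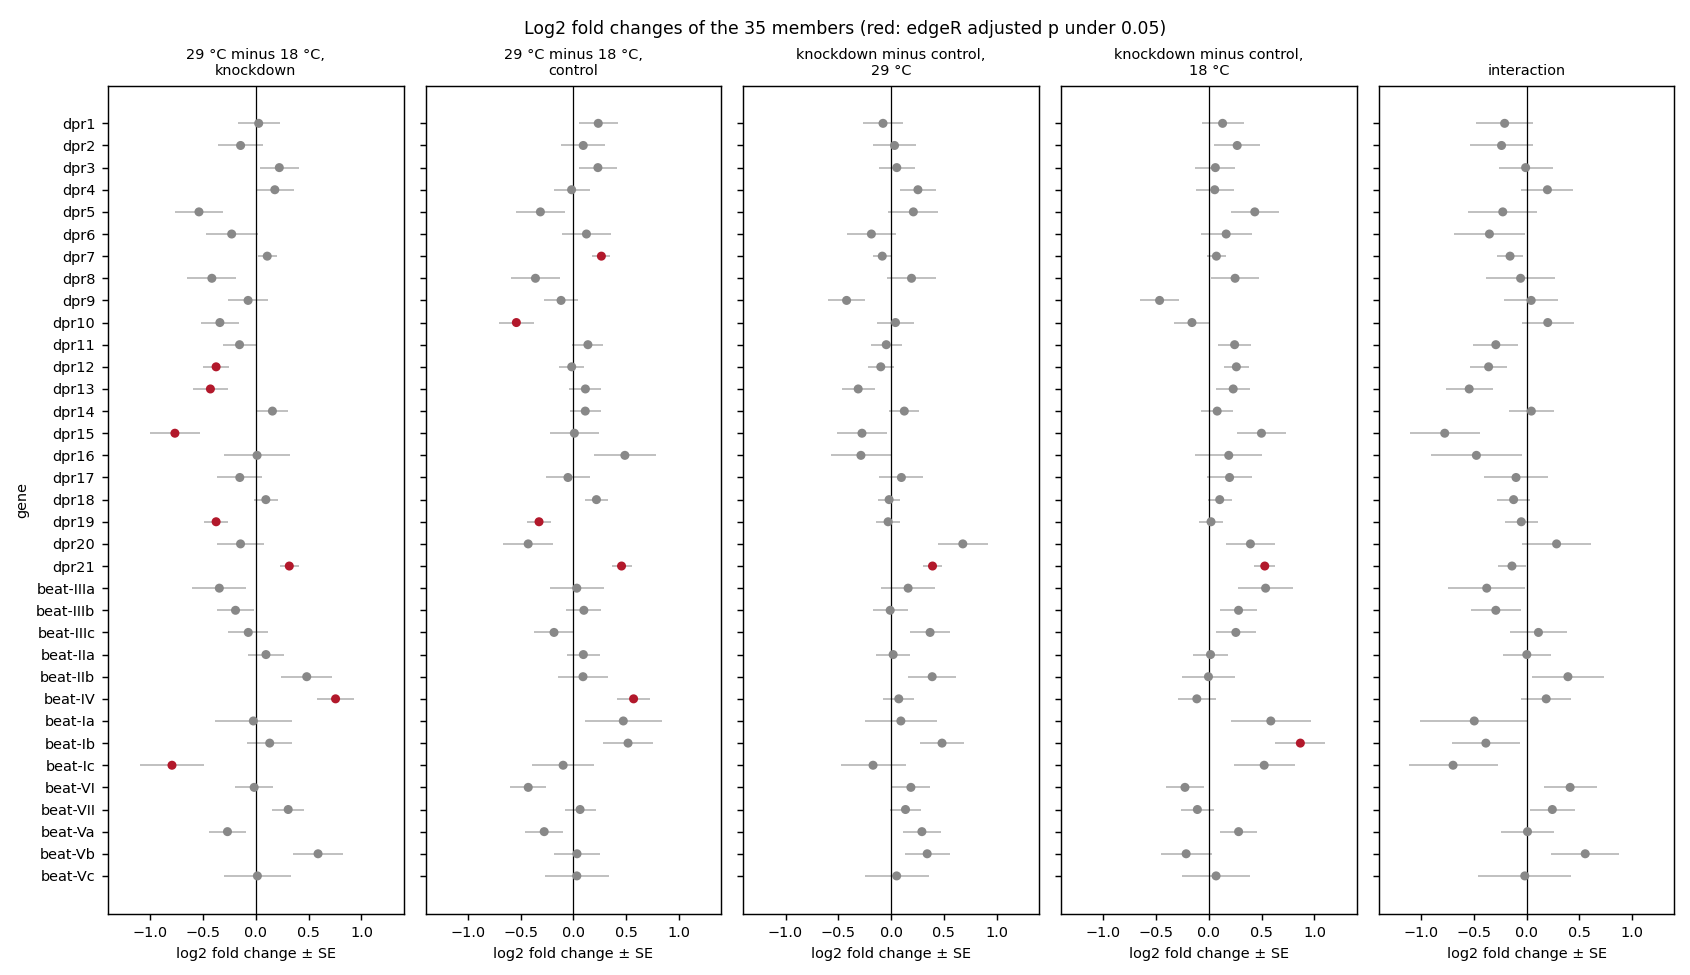
Log2 fold change ± SE of each of the 35 genes (rows) in the 5 comparisons (panels), from 1 edgeR model over 12 libraries, with genes past an adjusted p of 0.05 in red. Red points number 7 for temperature in knockdown heads, 5 in control heads, 1 for knockdown at 29 °C, 2 at 18 °C and 0 for the interaction.

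Knockdown was compared with control at each temperature. At 29 °C, 1 of the 35 genes passed, dpr21, or 2.86%, against 14.7% of all genes tested (7.14% higher) and 11.7% of those within the range of mean CPM. At 18 °C 2 passed, dpr21 and beat-Ib, both higher, or 5.71%, against 14.1% of all genes tested (6.63% higher) and 11.2% of those within the range. Libraries of the genotypes did not overlap in 6 of the 35 genes at 29 °C, where 31.8% of all genes did not, and in 7 at 18 °C, where 28.8% did not.

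beat-Ib, another close relative of beat-Ia, stood at 13.8, 12.5 and 12.9 CPM in knockdown heads and at 9.59, 5.29 and 6.97 CPM in control heads at 18 °C. These groups did not overlap, and the level was 1.82-fold higher in knockdown heads (log2 fold change 0.87 with SE 0.238, edgeR adjusted p = 0.0158). At 29 °C it stood at 11.5, 17 and 14.2 CPM in knockdown heads and 11.6, 12.2 and 7.11 CPM in control heads, groups that overlapped (log2 fold change 0.48 with SE 0.212, edgeR adjusted p = 0.144). The call at 18 °C was lost without the 3 libraries high in Obp83a, which left 1 knockdown library at that temperature. It was also lost without the 2 low in roX1 (edgeR adjusted p = 0.109), and without replicate 2 of control or replicate 1 or 3 of knockdown at 18 °C.

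Among genes that did not pass, dpr20 stood at 10.6, 12.8 and 9.54 CPM in knockdown heads and 7.14, 5.39 and 8.24 CPM in control heads at 29 °C (log2 fold change 0.68 with SE 0.234, edgeR adjusted p = 0.0563). The 3 knockdown libraries lay above the 3 control libraries, and dpr20 passed there under 4 of 20 alternatives. dpr9 had the lowest knockdown log2 fold change of the 35 at both temperatures. It stood at 8.7, 10.7 and 10.8 CPM in knockdown heads and 14.9, 14.4 and 11.2 CPM in control heads at 29 °C, and at 9.46, 10.4 and 11.6 CPM in knockdown heads and 15, 12.2 and 17.7 CPM in control heads at 18 °C. Its groups did not overlap at either temperature, and its log2 fold changes of -0.42 (edgeR adjusted p = 0.119) and -0.47 (edgeR adjusted p = 0.0947) did not pass. At 18 °C dpr9 did pass without replicate 2 of control at 18 °C and without the 2 libraries low in roX1.

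The 35 genes leaned to higher values in knockdown heads at 18 °C. There 28 had a log2 fold change above 0 and 7 below, among them 19 and 2 of the dpr genes, with a median of 0.19 against 0.01 over all genes tested. Replicate 3 of knockdown at 18 °C bore on this: without it 22 were above 0 and 13 below with a median of 0.12, and the dpr genes gave 13 and 8 with a median of 0.07. Without the 3 libraries high in Obp83a 21 were above 0 and 14 below, with a median of 0.13. With all 12 libraries, 4687 of the 9056 genes tested were above 0 at 18 °C and 4369 below. Neuron markers gave 13 above and 4 below (median 0.14), and other neuronal adhesion and guidance genes 31 and 18 (median 0.07). DIP genes gave 4 and 5, and side genes 2 and 6. At 29 °C the lean was in the beat genes: 12 were above 0 and 2 below, with a median of 0.15, while 10 dpr genes were above and 11 below, with a median of -0.02. Without replicate 1 of control at 29 °C, 10 beat genes were above 0 and 4 below, with a median of 0.07. Over all genes tested 4590 were above 0 at 29 °C and 4466 below, with a median of 0.01. Neuron markers gave 14 above and 3 below there (median 0.235), and other neuronal adhesion and guidance genes 30 and 19 (median 0.04). DIP genes gave 5 and 4, and side genes 2 and 6.

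Summed over the family, the 21 dpr genes gave 351, 388 and 353 CPM in knockdown heads and 332, 365 and 368 CPM in control heads at 29 °C, which overlapped. At 18 °C they gave 371, 375 and 391 CPM in knockdown heads and 355, 324 and 344 CPM in control heads, which did not. The 14 beat genes gave 156, 164 and 162 CPM in knockdown heads and 134, 155 and 138 CPM in control heads at 29 °C, and 144, 148 and 157 CPM in knockdown heads and 141, 129 and 141 CPM in control heads at 18 °C. Neither pair of beat sums overlapped. Single called genes are part of these sums at 18 °C. The mean of dpr21 was 48.2 CPM in knockdown and 33.4 CPM in control heads, within mean dpr sums of 379 and 341 CPM. The mean of beat-Ib was 13.1 CPM in knockdown and 7.28 CPM in control heads, within mean beat sums of 150 and 137 CPM.

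**Figure D4:**
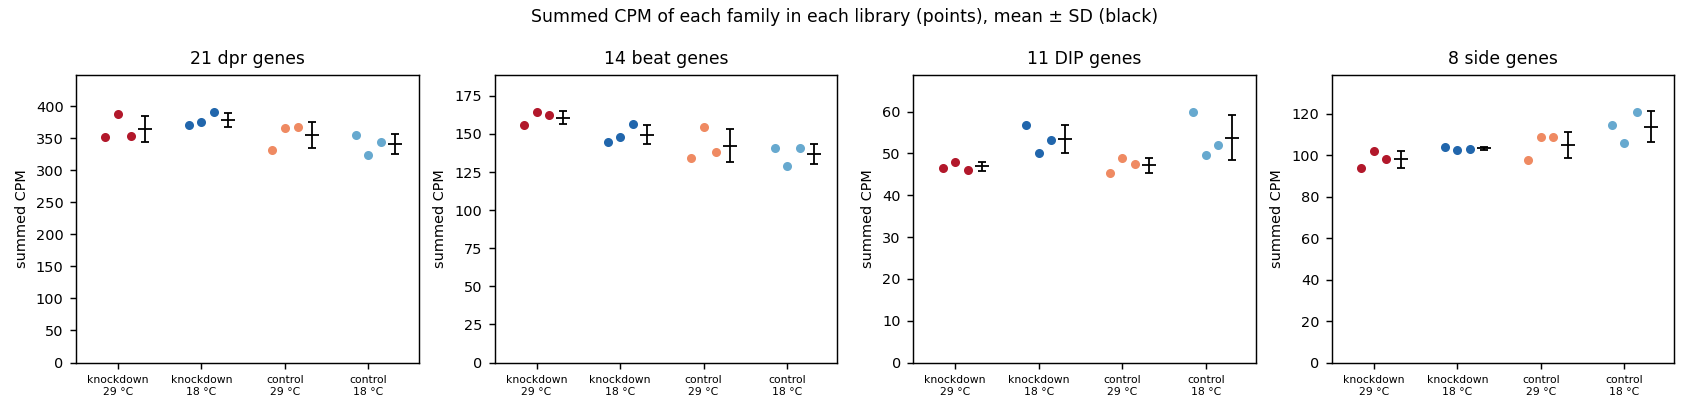
Summed CPM of the 21 dpr, 14 beat, 11 DIP and 8 side genes in each library (points, 3 per group), with the group mean ± SD in black. The dpr sums of knockdown heads at 18 °C, at 371 to 391 CPM, lie above those of control heads at 18 °C, at 324 to 355 CPM.

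Markers of neurons were set beside these sums. The 17 neuron markers summed to 1771 to 1861 CPM in knockdown heads and 1559 to 1672 CPM in control heads at 29 °C, which did not overlap, and 5 were higher and none lower by edgeR. At 18 °C they summed to 1674 to 1716 CPM in knockdown heads and 1492 to 1693 CPM in control heads, with 3 higher and 1 lower. For temperature, 6 neuron markers were higher and 4 lower in knockdown heads, and 5 higher and 4 lower in control heads. Of all genes tested, 35.5% passed for temperature in knockdown heads and 38% in control heads. For knockdown 14.7% passed at 29 °C and 14.1% at 18 °C. elav, an RNA-binding protein of all neurons, was higher at 29 °C (log2 fold change 0.80 in knockdown, edgeR adjusted p = 2.7e-06, and 0.58 in control heads, edgeR adjusted p = 7.75e-05). Gad1, which makes the transmitter GABA, was lower at 29 °C (log2 fold change -0.54 in knockdown, edgeR adjusted p = 3.07e-05, and -0.63 in control heads, edgeR adjusted p = 4.66e-06). The part of neuron content in the dpr and beat values was not tested.

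Markers of other cell types were called as well, and the same shares of all genes tested apply to them. Of 13 photoreceptor markers, 9 were higher and 2 lower at 29 °C in knockdown heads and 9 higher and 1 lower in control heads, with sums of 48610 to 50620 CPM at 29 °C and 32900 to 36250 CPM at 18 °C in knockdown heads, and 48740 to 50620 CPM at 29 °C and 29040 to 30210 CPM at 18 °C in control heads. Of 11 glia markers, 9 were lower and 1 higher in knockdown heads and 7 lower and 1 higher in control heads. Of 13 muscle markers, 11 were lower in knockdown heads, and 10 were lower and 2 higher in control heads. Of 13 tested antennal markers, 11 were lower in knockdown heads, and 5 were lower and 1 higher in control heads. Of 8 tested fat body markers, 4 were lower and 1 higher in knockdown heads, and 3 lower and 2 higher in control heads. Between genotypes, antennal markers gave 2 higher and 1 lower at 29 °C and 8 higher at 18 °C in knockdown heads, and fat body markers 4 higher and 1 lower at 29 °C and 5 higher and 1 lower at 18 °C. Knockdown calls in the remaining lists numbered 6 photoreceptor, 3 glia and 3 muscle markers at 29 °C, and 6, 4 and 0 at 18 °C, where no muscle marker had an unadjusted p under 0.05 either. Their part in the dpr and beat values was not tested.

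The interaction asked whether temperature acted differently in knockdown and control heads. None of the 35 genes passed, where 2.31% of all genes tested did and 1.22% of those within the range of mean CPM, and DESeq2 called none either. At an unadjusted p under 0.05, where 14.1% of all genes tested passed, so did 3 of the 35, dpr12, dpr13 and dpr15, all negative. Of the dpr genes 16 had a negative interaction and 5 a positive one, with a median of -0.14. Of the beat genes 6 were negative and 8 positive, with a median of 0.01. Over all genes tested 4547 were negative and 4509 positive, with a median of -0.001. On leaving out single libraries the medians ran from -0.21 to -0.08 for the dpr and from -0.05 to 0.12 for the beat genes. The limit was wide: the 95% interval lay within a 2-fold change either way in 25 of the 35 genes and reached it in 10. For the other comparisons the interval stayed within 2-fold in 30 genes for temperature in knockdown heads, 32 in control heads, 34 for knockdown at 29 °C and 31 at 18 °C.

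Comparisons that share no library can be set side by side. The temperature log2 fold changes had the same sign in knockdown and control heads in 26 of the 35 genes, against 77.9% of all genes tested, with r = 0.513 and rho = 0.528 across genes. The knockdown log2 fold changes had the same sign at 29 °C and 18 °C in 17 of 35, against 64.7% of all genes tested, with r = 0.247 and rho = 0.133. Genes are not independent replicates, and these values describe the same libraries, depth and normalization.

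**Figure D5:**
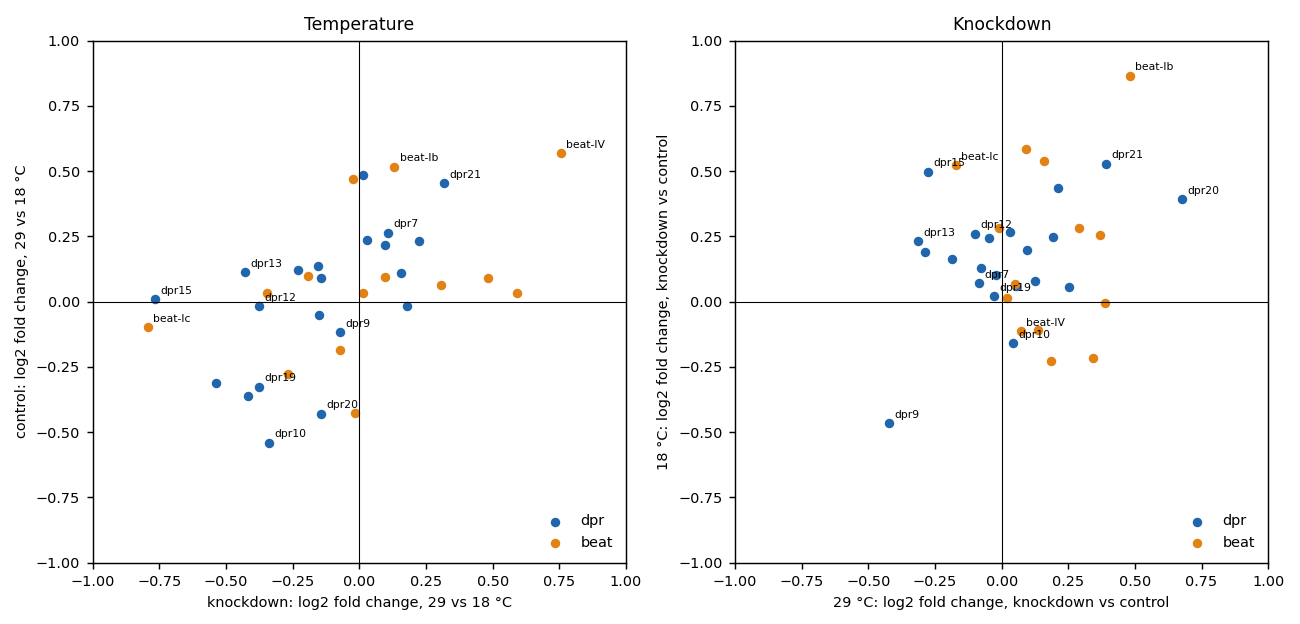
Log2 fold changes of the 35 genes (dpr blue, beat orange), for temperature in knockdown (x) and control (y) heads on the left, and for knockdown at 29 °C (x) and 18 °C (y) on the right. beat-IV and dpr21 lie to the upper right for temperature, and beat-Ib, dpr21 and dpr20 to the upper right for knockdown.

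The 25 genes that passed in no comparison were dpr1 to dpr6, dpr8, dpr9, dpr11, dpr14, dpr16, dpr17, dpr18 and dpr20 among the dpr genes, and beat-Ia, beat-IIa, beat-IIb, beat-IIIa, beat-IIIb, beat-IIIc, beat-Va, beat-Vb, beat-Vc, beat-VI and beat-VII. Their mean levels ran from 3.05 to 32.8 CPM. Their log2 fold changes ran from -0.54 to 0.59 for temperature in knockdown heads, -0.43 to 0.49 in control heads, -0.42 to 0.68 for knockdown at 29 °C and -0.47 to 0.59 at 18 °C. Among them are dpr6, whose product binds DIP-alpha as that of dpr10 does, dpr11, which encodes a partner of DIP-gamma in color-vision circuits, and beat-IIa and beat-IIb, whose products bind Side-IV.

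beat-IIa had the smallest spread of group means. It stood at 19.9, 22.3 and 17.5 CPM in knockdown heads at 29 °C and 16.8, 20.9 and 19 CPM at 18 °C, and at 15.1, 24.8 and 19.7 CPM in control heads at 29 °C and 18.6, 20.5 and 15.8 CPM at 18 °C, and its group means differed at most 1.09-fold. Within the beat subfamilies, at 18 °C the knockdown log2 fold change was 0.59 for beat-Ia, 0.87 for beat-Ib and 0.52 for beat-Ic. It was 0.28, -0.21 and 0.07 for beat-Va, beat-Vb and beat-Vc, and 0.54, 0.28 and 0.26 for beat-IIIa, beat-IIIb and beat-IIIc. At 29 °C it was 0.09, 0.48 and -0.17 for the beat-I genes in the same order. The beat-V genes gave 0.29, 0.34 and 0.05 there, and the beat-III genes 0.16, -0.01 and 0.37. Of all these values that of beat-Ib at 18 °C alone passed.

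The binding partners were measured in the same libraries. Of 11 DIP genes 9 had enough reads, all but DIP-eta and DIP-iota. 1 of the 9 passed (11.1%), for temperature in control heads, where 38% of all genes tested did. None passed in the other 4 comparisons by edgeR. Of all genes tested 35.5% passed for temperature in knockdown heads. For knockdown 14.7% passed at 29 °C and 14.1% at 18 °C, and for the interaction 2.31%. At an unadjusted p under 0.05 these 4 comparisons gave 1 DIP gene for temperature in knockdown heads and 1 for knockdown at 29 °C. They gave 0 for knockdown at 18 °C and 0 for the interaction. The shares of all genes tested were 44.2%, 26.9%, 26.1% and 14.1%. DIP-zeta stood at 2.24, 4.19 and 3.37 CPM at 29 °C and 6.88, 6.38 and 7.77 CPM at 18 °C in control heads (log2 fold change -1.07 with SE 0.265, edgeR adjusted p = 0.00292). In knockdown heads it stood at 5.3, 6.64 and 3.61 CPM at 29 °C and 8.11, 7.41 and 9.19 CPM at 18 °C (log2 fold change -0.64 with SE 0.249, edgeR adjusted p = 0.0517). Warm libraries lay below cool ones in both genotypes.

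Of the 8 side genes, which encode the Sidestep family of Beat receptors, 2 (25%) passed for temperature in control heads and 1 (12.5%) for knockdown at 29 °C. Of all genes tested 38% and 14.7% passed there. side-V stood at 12.7, 15.5 and 14.2 CPM in knockdown heads and 24.3, 20.2 and 20.4 CPM in control heads at 29 °C, without overlap (log2 fold change -0.61 with SE 0.137, edgeR adjusted p = 0.00401). At 18 °C it stood at 12.4, 12.5 and 13.1 CPM in knockdown heads and 13.6, 11.9 and 15.8 CPM in control heads, which overlapped. It was higher at 29 °C than at 18 °C in control heads (log2 fold change 0.68 with SE 0.136, edgeR adjusted p = 0.000455), with a log2 fold change of 0.16 in knockdown heads (edgeR adjusted p = 0.471) and an interaction of -0.52 (SE 0.209, edgeR adjusted p = 0.242). side-VIII stood at 16.3, 31.2 and 21.7 CPM at 29 °C and 30.9, 30.4 and 34.8 CPM at 18 °C in control heads (log2 fold change -0.46 with SE 0.154, edgeR adjusted p = 0.0217). Replicate 2 at 29 °C lay among the cool libraries, so the groups overlapped. The log2 fold change was -0.74 without that library and -0.27 without replicate 1 at 29 °C, where the call was lost (edgeR adjusted p = 0.149), as it was without replicate 3 of either temperature or without the 3 libraries high in Obp83a (0.163).

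Among 49 other neuronal adhesion and guidance genes, 13 (26.5%) passed for temperature in knockdown heads, 2 higher and 11 lower, against 35.5% of all genes tested. In control heads 16 (32.7%) passed, 5 higher and 11 lower, against 38% of all genes tested. For knockdown 3 were higher at 29 °C and 3 at 18 °C (6.12% each), and none was lower. Of all genes tested 14.7% and 14.1% passed there. Fas2, a homophilic adhesion molecule of axon bundles, was lower at 29 °C (log2 fold change -0.81 in knockdown heads, edgeR adjusted p = 1.34e-06, and -0.55 in control heads, edgeR adjusted p = 0.00011). bdl, an immunoglobulin protein of photoreceptor axon targeting, was lower as well (log2 fold change -0.61 in knockdown heads, edgeR adjusted p = 1.02e-05, and -0.69 in control heads, edgeR adjusted p = 1.6e-06). caps, a leucine-rich repeat protein, was lower too (log2 fold change -0.40 in knockdown heads, edgeR adjusted p = 0.00992, and -0.76 in control heads, edgeR adjusted p = 1.26e-05). The call of caps in knockdown heads was lost without the 3 libraries high in Obp83a, which left 1 knockdown library at 18 °C. It was also lost without the 2 low in roX1 (edgeR adjusted p = 0.0678), and without replicate 3 at 18 °C or replicate 1 at 29 °C. Con, another leucine-rich repeat adhesion protein, was higher in knockdown heads at 29 °C (log2 fold change 1.01 with SE 0.155, edgeR adjusted p = 8.54e-05).

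Neighbouring and overlapping genes were found from the gene coordinates of the Release 6 annotation, used for order and overlap alone. The counts were made on dm3, where order and overlap were not checked. dpr4 and dpr5 neighbour each other, as do dpr6 and dpr10, and in neither pair did both genes pass in the same comparison. The 35 genes had 62 other neighbours, of which 22 were tested. Of these 22, 7 passed for temperature in knockdown heads and 8 in control heads, where 35.5% and 38% of all genes tested passed. For knockdown 4 passed at 29 °C and 4 at 18 °C, where 14.7% and 14.1% of all genes did. For the interaction 1 passed, where 2.31% of all genes did. 1 gene that overlaps one of the 35 was tested, cno with dpr16, and neither passed in any comparison. The counting's strand setting was not given, so reads of overlapping genes cannot be told apart. No gene of the 35 had counts within 5% or 2 reads of another gene in every library. That check asked for at least 100 reads in total, which cno alone held among overlapping genes of the table. It cannot show partial sharing of reads.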

How the data were processed

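The deposited RNA table holds whole-number counts of reads per gene and library, not normalized, made by the authors. STAR, TopHat2 and the build dm3 appear in the submitters' processing notes. Versions, read counter, annotation and strandedness are not given in the sources used here. Groups came from the labels. The analysis used edgeR 4.0.16 (R 4.3.3): filterByExpr (minimum count 10, minimum total 15), TMM scaling, and 1 quasi-likelihood model with 4 groups over 12 libraries. Benjamini-Hochberg adjustment covered all 9056 genes tested, and adjusted p-values under 0.05 were called. SEs came from the F statistic, and 95% intervals from SE and the t distribution of the fit. The model was tested on simulated counts. Alternatives were RLE scaling, DESeq2 1.42.0, other filters, a replicate block, fewer groups, and leaving out libraries.

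Members and gene lists were chosen with earlier results of these data known. All 35 symbols matched RefSeq names. Values per library are given for each gene called in at least 1 comparison, and other members are given by range. Near misses, beat-IIa and Obp83a were picked after their values were seen. In other lists up to 4 called genes with the smallest adjusted p were named. The H3K4me3 peak lists were not used, since no dm3 annotation was at hand, and the other 42 samples were not analysed here. The limit for a count of 0 covers counting error only.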

Additional observations from a re-analysis of the deposited data

Results flagged for a closer look

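Obp83a, which marks libraries that stood apart, was flagged because its temperature effect differed between the genotypes. The interaction was -6.93 on the log2 scale (SE 1.75, edgeR adjusted p = 0.0392), with a temperature log2 fold change of -5.65 in knockdown heads (edgeR adjusted p = 9.29e-05) and 1.28 in control heads (edgeR adjusted p = 0.469). Replicates 2 and 3 of knockdown at 18 °C were at 69 and 44 CPM, while replicate 1 of that group was at 1.35 CPM. The interaction call was lost on leaving out any of 8 of the 12 libraries (edgeR adjusted p up to 0.608). No dpr or beat gene was flagged.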

How the results depend on the processing

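None of the 15 called results reversed under the 20 alternatives, and 5 kept their call under all of them: dpr21 for temperature in control heads and for knockdown at both temperatures, and beat-IV for temperature in both genotypes. For temperature in knockdown heads, 7 genes called became 4 in DESeq2 and 4 without the 2 libraries low in roX1, with 3 to 8 on leaving out single libraries. In control heads 5 became 3 in DESeq2, with 4 to 6 on leaving out single libraries. For knockdown at 29 °C, 1 became 2 with no filter on low counts and 2 with the compared groups alone, with 1 to 2 on leaving out single libraries. At 18 °C, 2 became 1 to 3 on leaving out single libraries. The interaction called 0 members under all 19 alternatives that could give it. Over all genes, calls were fewer without the 3 libraries high in Obp83a in every comparison, including those that do not use knockdown at 18 °C. That setting left 1 library of knockdown at 18 °C and took 1 from control at 29 °C. The part of these libraries and the loss of replicates thus cannot be told apart. The interaction called 209 genes in the main fit, 423 with no filter, and 122 to 250 on leaving out single libraries. Knockdown at 29 °C called 873 to 1395 against 1332.

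Same-numbered libraries did not deviate together (correlations of -0.113 to 0.027 over 18 pairs), and the main model paired none. These correlations cannot tell whether libraries of the same number were collected or prepared together. With a replicate block 5 members were called for temperature in knockdown heads, 6 in control heads, 1 and 2 for knockdown at 29 °C and 18 °C, and 0 for the interaction. Counts of 4 to 369 per library limit the precision of single members, and a stricter filter tested 31 of the 35.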
